A study of Mus musculus with 18 samples.

Results

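A mixture of the RNA of 2 cell populations has, for every gene, a level between the levels of its parts. That property was used here to ask which genes of embryonic stem (ES) cells grown on p53-defective feeders had levels that no mixture of the same feeders alone and of ES cells can give. A gene was taken as a member where its mean in the co-culture was at least 2-fold above the higher, or at least 2-fold below the lower, of the means of the 2 parts, with at least 10 CPM (counts scaled to the total of a library) in 1 of the 3 groups. By this rule 2174 genes were members, of 10989 that reached 10 CPM and of 19630 genes in the table. Of them 644 lay above the range, which is 5.86% of the eligible genes, and 1530 lay below it, which is 13.9%. Because the members were selected on these 9 libraries, their levels in them are given as a description, without a test.

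The tested culture was ES cells on feeders labelled p53-defective, called the p53-defective co-culture below. Its parts were the p53-defective feeders alone and ES cells cultured on control feeders from which the feeders had been removed, called feeder-removed ES cells. The 3 other groups were ES cells in culture with ATN161, an inhibitor of the integrin α5β1, in place of feeders; ES cells on control feeders, called the control co-culture; and control feeders alone. Feeders were mouse embryonic fibroblasts, the cell layer that supplies attachment and secreted factors to ES cells. Each group held 3 libraries of mRNA, and the labels do not say whether these came from separate cultures, so every p-value below measures only the spread between these libraries. Neither the alteration of p53, nor the mouse strain, nor how and when feeders were removed is given in the sources used here, and no group of ES cells freed from p53-defective feeders was analysed here. The feeder-removed ES cells came from control feeders, so they stand in for the ES part of another culture.

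p53 is a transcription factor that raises the RNA of genes that halt the cell cycle or promote cell death. Cells that run short of oxygen raise the enzymes of glycolysis through the hypoxia-inducible factors, which bind DNA at short elements with the core ACGTG. Smooth muscle actin and its partners mark contractile fibroblasts, and their genes are driven by serum response factor together with cofactors that sense free actin.

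Depth ran from 15122721 to 19833404 counts a library, so that 1 count was worth at most 0.0661 CPM. As a check of the labels, Trp53, the gene of p53 (Entrez 22059, chromosome 11 from 69580348 to 69591873 on GRCm38), had 136, 134 and 124 CPM in the p53-defective co-culture, 339.8, 329 and 256 CPM in the p53-defective feeders and 376, 367 and 415 CPM in the feeder-removed ES cells. It was thus itself a member below the range, with all 3 co-culture libraries lower than the 6 libraries of the parts. Trp53 had 433, 416 and 443 CPM in ATN161 ES cells, 316, 326 and 316 CPM in the control co-culture and 123, 122 and 109.6 CPM in the control feeders. The p53-defective feeders thus held Trp53 RNA in all 3 libraries, and its level does not show what is altered in the feeders labelled p53-defective. The ES cell factor Pou5f1, which keeps ES cells pluripotent, had 37.4, 55.7 and 37.8 CPM in the p53-defective co-culture, no count in the p53-defective feeders (3 counts over the group would be 0.0633 CPM) and 747 to 785 CPM in the feeder-removed ES cells. Intervals and floors of counts cover counting error only. The 12 ES cell markers summed to 303 to 407 CPM in the p53-defective co-culture, 155 to 178 CPM in the p53-defective feeders and 5202 to 5327 CPM in the feeder-removed ES cells. The fibroblast markers were present in both feeder groups, but the fibroblast gene Lum was at most 0.129 CPM in the p53-defective feeders, against 219 to 335 CPM in the control feeders. The 10 mesothelial markers summed to 1969 to 2117 CPM in the p53-defective co-culture and 1682 to 2603 CPM in the p53-defective feeders, against 25 to 27.6 CPM in the feeder-removed ES cells and 64.2 to 73.6 CPM in the control feeders. In RNA of whole cultures, fewer cells of a type and less RNA per cell cannot be told apart.

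The mixture that came nearest to the p53-defective co-culture held 3.9% of RNA like that of feeder-removed ES cells, and 6.3% without co-culture library 2 or 6.4% without feeder library 3. With each co-culture library taken alone, the best share was 6.6%, 4.3% and 5.2%. Around the best mix, the median gene deviated 1.63-fold, and 65.6% of the genes lay within 2-fold of it. The control co-culture, set against control feeders and the same feeder-removed ES cells, was best met by 84.5% of RNA like that of feeder-removed ES cells, with a median deviation of 1.17-fold and 96.8% of the genes within 2-fold. The feeder-removed ES cells held RNA of fibroblast markers, so these shares are not read as shares of ES cells. The 12 fibroblast markers summed to 5619 to 6151 CPM in them, against 2205 to 2312 CPM in ATN161 ES cells, and Lum had 121 to 154 CPM, against 13.6 to 16.3 CPM in ATN161 ES cells. With ATN161 ES cells as the ES part the best share was 5.7% in the p53-defective co-culture and 71.8% in the control co-culture. By the same rule, 77 of 11036 eligible genes lay above the range in the control co-culture, which is 0.698%, and 20 lay below, which is 0.181%. The 2 co-cultures thus differed both in how many genes left the range and in this share, and the part of that share in the counts was not tested. They were set against the same feeder-removed ES libraries, so the counts are not independent of each other.

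**Figure D1:**
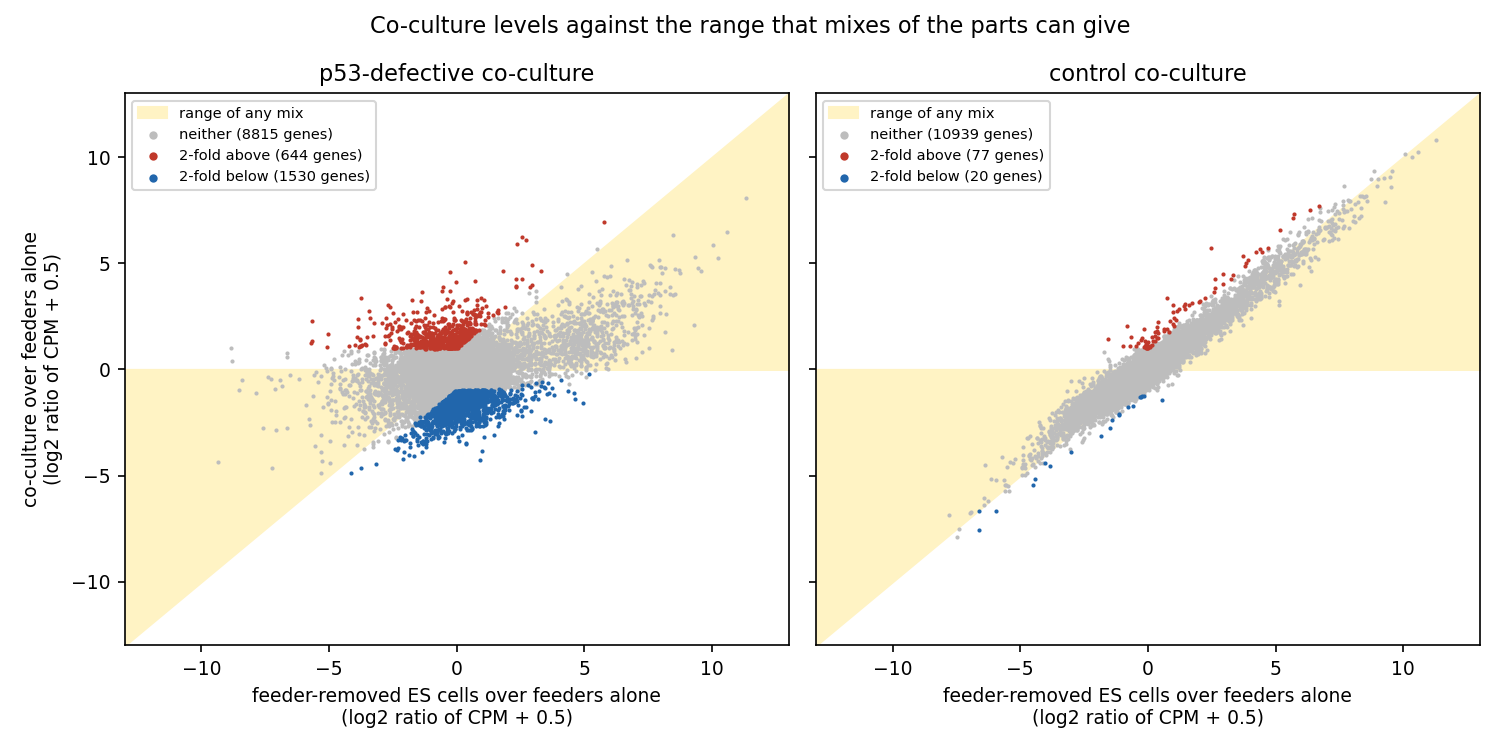
Each point is a gene, for the p53-defective co-culture (left) and the control co-culture (right). The x axis is the log2 ratio of feeder-removed ES cells to the feeders alone and the y axis the log2 ratio of the co-culture to the feeders alone, both on CPM with 0.5 CPM added. A mixture can only give points inside the yellow area. In the p53-defective co-culture, 644 genes (red) were 2-fold above and 1530 (blue) 2-fold below that area, against 77 and 20 in the control co-culture.

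Most members lay at an extreme of the whole study. Of the 644 genes above the range, 565 had the highest mean of all 6 groups in the p53-defective co-culture, and 318 were at least 2-fold above each of the 5 other means. Among the 1530 below, 1361 had the lowest mean there and 674 were at least 2-fold below each of the others. All 3 co-culture libraries lay beyond all 6 libraries of the parts in 643 of the 644 and in 1525 of the 1530. The rule used these same libraries and already put members beyond both parts. This separation, and in part the ranks among the 6 groups, thus follow from it and are no support for the members. The same shares over all eligible genes were not computed. The median member above was 2.62-fold over the higher part, and 26 were at least 8-fold over it. The median member below was 2.75-fold under the lower part, and 20 were at least 8-fold under it. Genes above the range took 16.5% of all counts in the p53-defective co-culture, against 5.37% in the p53-defective feeders and 3.84% in the feeder-removed ES cells. Genes below it took 4.26% in the p53-defective co-culture, against 13.8% in the p53-defective feeders and 16.1% in the feeder-removed ES cells.

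At the edge of the rule, Keap1, which holds back the oxidative stress factor NRF2, was just inside with 73.2 CPM in the co-culture, against 36.1 CPM in the feeders and 36.6 CPM in the feeder-removed ES cells. The Golgi gene Yipf1 was just outside with 50.9, against 22.2 and 25.5 CPM. On the lower side Pabpn1, which binds nuclear poly(A) tails, was just inside with 63.9 CPM, against 128 and 192 CPM. The sorting nexin gene Snx10 was just outside with 29.1, against 58.1 and 65.5 CPM. Ifi209, a gene of the interferon-inducible Ifi200 family, had no count in the 3 co-culture libraries, but its lower part was only 0.0834 CPM, and 7 of the members below had a lower part under 1 CPM. Reads of Ifi209, as of other multicopy families, cannot be assigned to 1 locus with certainty.

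Glucose breakdown and the oxygen response stood out among the 27 gene lists described. Of the 33 eligible genes of glycolysis and hypoxia, 21 lay above the range (63.6%, against 5.86% of all eligible genes) and none below. The list's median was 1.73 log2 units above the best mix, against -0.22 for all eligible genes. Members of the pathway from uptake of glucose to lactate were the glucose transporter gene Slc2a1, Gpi1, Pfkl, Aldoa, Aldoc, Tpi1, Gapdh, Pgk1, Pgam1, Pkm and Ldha. Others belong to the response to low oxygen, namely the oxygen-sensing hydroxylase genes Egln1 and Egln3, the mitophagy receptor gene Bnip3, Higd1a, Ndrg1, P4ha2, Ankrd37, Adm and Loxl2. The cytokine gene Mif was the last of the 21. The hexokinase gene Hk2 (means of 81.1 CPM in the co-culture, 66.6 CPM in the feeders and 217 CPM in the feeder-removed ES cells) and the enolase gene Eno1 (1542, 428 and 853 CPM) were not members.

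Phosphofructokinase, which commits sugar to glycolysis, is encoded in liver form by Pfkl (chromosome 10 from 77986947 to 78009807). Its RNA had 848, 880.0 and 815 CPM in the p53-defective co-culture, 99, 113 and 122 CPM in the p53-defective feeders and 88.7, 89.6 and 97.3 CPM in the feeder-removed ES cells. The co-culture libraries did not overlap with either part, and their mean was 7.63-fold above the higher of them. Lactate dehydrogenase A, which turns pyruvate into lactate, is encoded by Ldha (chromosome 7 from 46842274 to 46855627). Ldha had 2645, 2931 and 2390.5 CPM in the p53-defective co-culture, 552, 594 and 496 CPM in the p53-defective feeders and 368, 369.6 and 381 CPM in the feeder-removed ES cells. Pgk1, the phosphoglycerate kinase gene, had 2478, 2655 and 2305 CPM in the p53-defective co-culture, 878, 965 and 754 CPM in the p53-defective feeders and 416, 416 and 435 CPM in the feeder-removed ES cells. All 3 co-culture libraries of both genes lay above every library of the parts, as in Gapdh, which averaged 11662 ± 876 CPM in the co-culture, 3020.3 ± 241 CPM in the feeders and 4220.2 ± 139 CPM in the feeder-removed ES cells (SD, n = 3 each). Gapdh, Pgk1, Pgam1, Ldha and Tpi1 have processed pseudogenes, and how reads shared with them were assigned is not given in the sources used here.

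Bnip3 (chromosome 7 from 138890836 to 138909506) had 495, 479.8 and 504 CPM in the p53-defective co-culture, 66.9, 74.3 and 86.2 CPM in the p53-defective feeders and 31.9, 30.3 and 36.8 CPM in the feeder-removed ES cells. The hydroxylase gene Egln3 (chromosome 12 from 54178981 to 54203874) had 199.8, 176 and 206 CPM in the p53-defective co-culture, 36, 45.4 and 33 CPM in the p53-defective feeders and 11.9, 11.7 and 11.1 CPM in the feeder-removed ES cells. Both genes were highest in all 3 co-culture libraries without overlap, by 6.5-fold for Bnip3 and 5.08-fold for Egln3 over the higher part. Bsg, which encodes the chaperone of lactate transporters and is not in the list, ranked among the 10 most abundant members above, with 6044 ± 239 CPM in the co-culture, against 1205 ± 206 CPM in the feeders and 420.2 ± 15 CPM in the feeder-removed ES cells (SD, n = 3 each). The hypoxia target Vegfa did not follow them: it had 264 ± 26.8 CPM in the co-culture, 811 ± 26.7 CPM in the feeders and 24 ± 2 CPM in the feeder-removed ES cells, inside the range. The membrane carbonic anhydrase Car9 had 6.94, 6.53 and 6.5 CPM in the co-culture and did not reach the 10 CPM of the rule.

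To show where this list holds the core of the hypoxia element, promoter windows of Bnip3, Egln3, Ldha and Pgk1 are given from 250 bases before to 50 after a transcript start (RefSeq, GRCm38.p6, strand of the gene). Capitals mark ACGTG on either strand, where CACGTG holds the core on both. They lie at chr7:138909457-138909756 (minus strand) for Bnip3, at chr12:54203825-54204124 (minus) for Egln3, at chr7:46845554-46845853 (plus) for Ldha and at chrX:106186850-106187149 (plus) for Pgk1.
Bnip3: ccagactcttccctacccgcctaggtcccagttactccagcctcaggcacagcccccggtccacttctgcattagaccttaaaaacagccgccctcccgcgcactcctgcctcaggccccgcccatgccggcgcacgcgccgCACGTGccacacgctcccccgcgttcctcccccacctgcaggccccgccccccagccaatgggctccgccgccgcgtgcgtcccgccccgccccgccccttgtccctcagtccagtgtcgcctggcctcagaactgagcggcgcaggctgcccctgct
Egln3: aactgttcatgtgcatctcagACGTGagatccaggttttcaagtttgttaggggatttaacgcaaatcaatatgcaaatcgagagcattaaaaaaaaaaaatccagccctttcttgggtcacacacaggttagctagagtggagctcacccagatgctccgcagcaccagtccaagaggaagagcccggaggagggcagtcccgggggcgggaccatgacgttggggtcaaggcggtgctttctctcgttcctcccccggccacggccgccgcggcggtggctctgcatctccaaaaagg
Ldha: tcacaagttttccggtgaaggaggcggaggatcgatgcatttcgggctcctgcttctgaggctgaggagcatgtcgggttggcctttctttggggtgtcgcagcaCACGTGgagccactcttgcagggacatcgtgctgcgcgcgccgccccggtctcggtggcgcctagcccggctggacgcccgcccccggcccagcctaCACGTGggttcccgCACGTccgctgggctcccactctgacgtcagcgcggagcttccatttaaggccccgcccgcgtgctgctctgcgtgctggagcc
Pgk1: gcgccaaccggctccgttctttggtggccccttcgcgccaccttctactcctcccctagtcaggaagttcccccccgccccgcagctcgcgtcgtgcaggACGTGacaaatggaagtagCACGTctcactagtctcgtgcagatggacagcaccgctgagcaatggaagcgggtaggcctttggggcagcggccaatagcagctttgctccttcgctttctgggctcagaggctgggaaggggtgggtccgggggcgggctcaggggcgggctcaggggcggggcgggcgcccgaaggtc
These 4 were chosen because they hold the letters. Ldha has a second listed window, at chr7:46846832-46847131, with no match, and Pfkl had none in its own.

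Over the list, 16 of 24 windows of the members above held ACGTG on either strand (66.7%, 19 genes with a window), as did 8 of 18 windows of the list's eligible genes that were not members (44.4%, 11 genes). The share was 26.5% over the windows of all members above, 26.6% over those of members below, 26.0% over those of all eligible genes and 19.6% over all 32851 listed windows. The windows of the list's members above had a median of 63.7% GC and 22 CpG, against 61.3% and 21 over all eligible genes. A match is a run of letters, not a bound site. The other letter patterns searched, on both strands, were those of AP-1 (TGANTCA), a cyclic AMP element core (TGACG), TEAD (GGAATG) and a TATA box (TATAAA). Windows of members above held them in 8.4%, 22.8%, 14.4% and 9.15%, against 4.97%, 31.4%, 11.8% and 6.73% of the windows of eligible genes. In windows of members below the shares were 3.52%, 36.2%, 10.1% and 5.96%. Patterns searched as an interferon-like and an NF-kB-like site were held by 3.3% and 69.3% of the windows of members above and by 3.04% and 68.2% of those of eligible genes.

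The control cultures, none of whose libraries entered the rule, gave a test of the same genes. Among the 15389 genes that edgeR's quasi-likelihood test covered, 6822 were higher (44.3%) and 6142 lower (39.9%) in the control co-culture than in control feeders, and 5176 were higher (33.6%) and 4307 lower (28.0%) in ATN161 ES cells than in the control co-culture, at a Benjamini-Hochberg adjusted p below 0.05. The balance between ATN161 ES cells and the control co-culture turned in 6 settings: 4156 genes were higher and 4876 lower with no filter on low counts, 5182 and 5477 with only the groups compared, 3748 to 3841 and 4482 to 4532 without a library of the control co-culture, and 4283 and 4813 without library 2 of control feeders. A gene of the control co-culture that passes both as higher, or both as lower, than control feeders and ATN161 ES cells also leaves the range of those 2 groups. There were 921 such genes above (5.98%) and 839 below (5.45%). In the glycolysis and hypoxia list, 17 of 33 genes were higher in the control co-culture than in both groups and none was lower than both. Among the 21 members above, 13 passed. A call has no minimum fold, and Tpi1 passed at 0.23 log2 units over control feeders. Of the 21, only Bnip3, Egln3, Pfkl and Slc2a1 also met the 2-fold rule in the control co-culture, against control feeders and feeder-removed ES cells. Other lists were often higher than both groups too, with 21 of 26 interferon response genes and 18 of 23 NF-kB and inflammatory genes. Egln3 was 3.32 ± 0.12 log2 units higher in the control co-culture than in control feeders (SE, edgeR adjusted p = 5.32e-17) and -2.40 ± 0.11 in ATN161 ES cells against the control co-culture (adjusted p = 3.77e-14). Bnip3 was 1.78 ± 0.10 higher in the control co-culture than in control feeders (edgeR adjusted p = 7.37e-14) and -2.06 ± 0.10 in ATN161 ES cells against the control co-culture (adjusted p = 6.73e-14). All 3 libraries of the control co-culture lay above the other 6 for both genes. For Slc2a1 the differences were 2.99 ± 0.10 and -1.16 ± 0.10 (edgeR adjusted p = 2.08e-17 and 7.86e-10), and its level in the control co-culture, 768, 656 and 723 CPM, was as high as the 684, 575 and 814 CPM of the p53-defective co-culture. Aldoc, Ndrg1, P4ha2 and Loxl2 were lower in the control co-culture than in control feeders, with differences of -1.57, -0.28, -0.57 and -0.33 (edgeR adjusted p at most 0.0118).

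**Figure D2:**
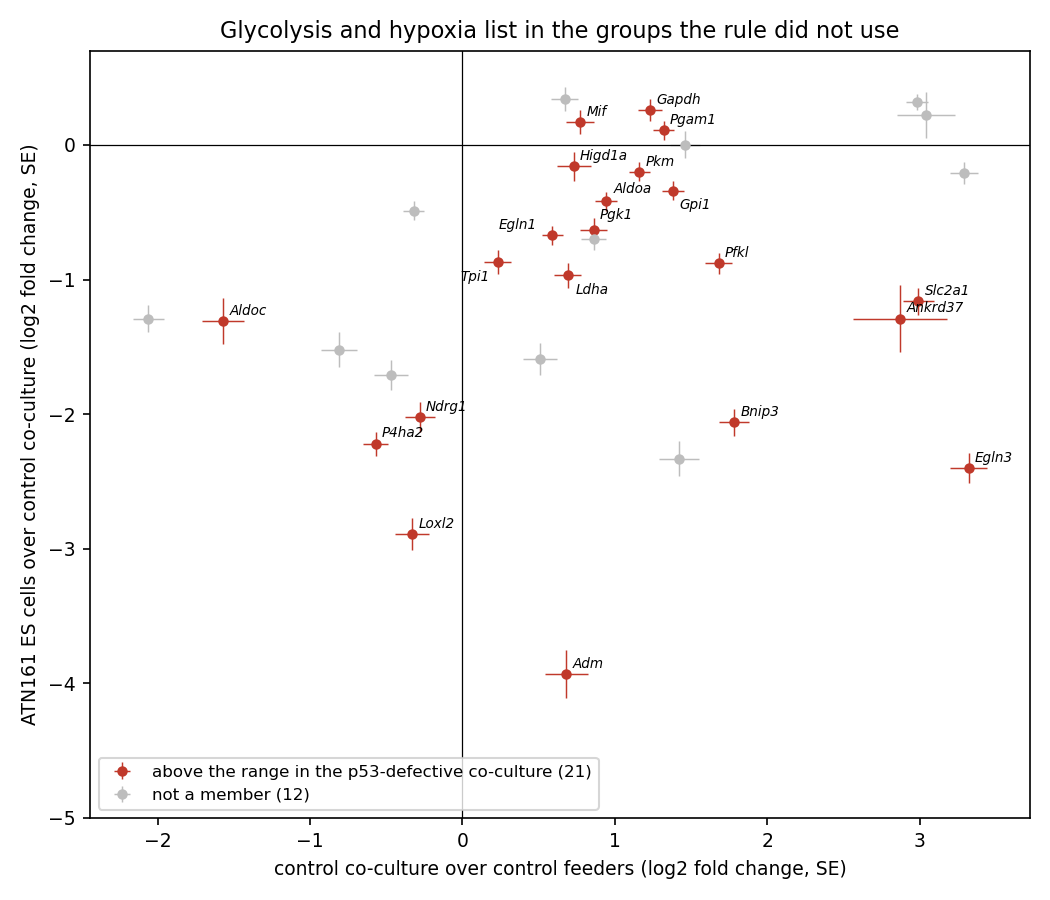
Points are the 33 eligible genes of the glycolysis and hypoxia list, with the edgeR log2 fold change of the control co-culture over control feeders on the x axis and of ATN161 ES cells over the control co-culture on the y axis (bars are 1 SE). Red marks the 21 members above the range in the p53-defective co-culture and grey the other 12. Points at the lower right are highest in the control co-culture, among them Egln3 (3.32 and -2.40) and Bnip3 (1.78 and -2.06).

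Of 23 eligible genes of the list of actin, SRF and YAP targets, 8 lay above the range (34.8%, against 5.86% of all eligible genes) and none below: Acta2, Tagln, Cnn1, Myl9, Actg2, Des, Lmod1 and Tpm2. The list's median was 0.50 log2 units above the best mix, against -0.22 for all eligible genes. Acta2 (chromosome 19 from 34240336 to 34255585), which encodes smooth muscle actin, had 4069.8, 4826 and 3703 CPM in the p53-defective co-culture, 557, 602 and 1203 CPM in the p53-defective feeders and 66.2, 67.4 and 87 CPM in the feeder-removed ES cells. The calponin gene Cnn1 (chromosome 9 from 22099221 to 22109221) had 163, 196 and 143 CPM in the p53-defective co-culture, 8.6, 11 and 27.4 CPM in the p53-defective feeders and 0.669 to 0.736 CPM in the feeder-removed ES cells. In both genes the third feeder library was the highest of its group and still below every co-culture library. Without that library 10 genes of the list were above the range, in place of 8. Tagln, encoding the actin-bundling protein transgelin, had 1294, 1713 and 1159.6 CPM in the co-culture, against 215, 254 and 417 CPM in the feeders and 50.7, 53.7 and 62 CPM in the feeder-removed ES cells.

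Ccn2 and Ankrd1, targets of YAP in the same list, lay inside the range. Ccn2 had a mean of 302 CPM in the co-culture, 918 CPM in the feeders and 194 CPM in the feeder-removed ES cells, and Ankrd1 had 195, 295 and 6.4 CPM. In the control arm, Acta2 was -2.25 ± 0.23 log2 units in the control co-culture against control feeders (SE, edgeR adjusted p = 9.02e-08), with levels of 133 to 161 against 595 to 669 CPM. The control co-culture mean of Acta2, 144 CPM, lay inside the range of control feeders (624 CPM) and feeder-removed ES cells (73.5 CPM). None of the 8 members was higher in the control co-culture than in both control feeders and ATN161 ES cells. The best mix of the control co-culture held 84.5% of RNA like that of feeder-removed ES cells, against 3.9% in the p53-defective co-culture. The part of this share in the levels of these genes was not tested. Skeletal muscle markers other than Des were near 0: Myod1, Myog, Actc1, Myl1, Tnnt3, Ttn, Mef2c and Ckm were under 1 CPM in the p53-defective co-culture.

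**Figure D3:**
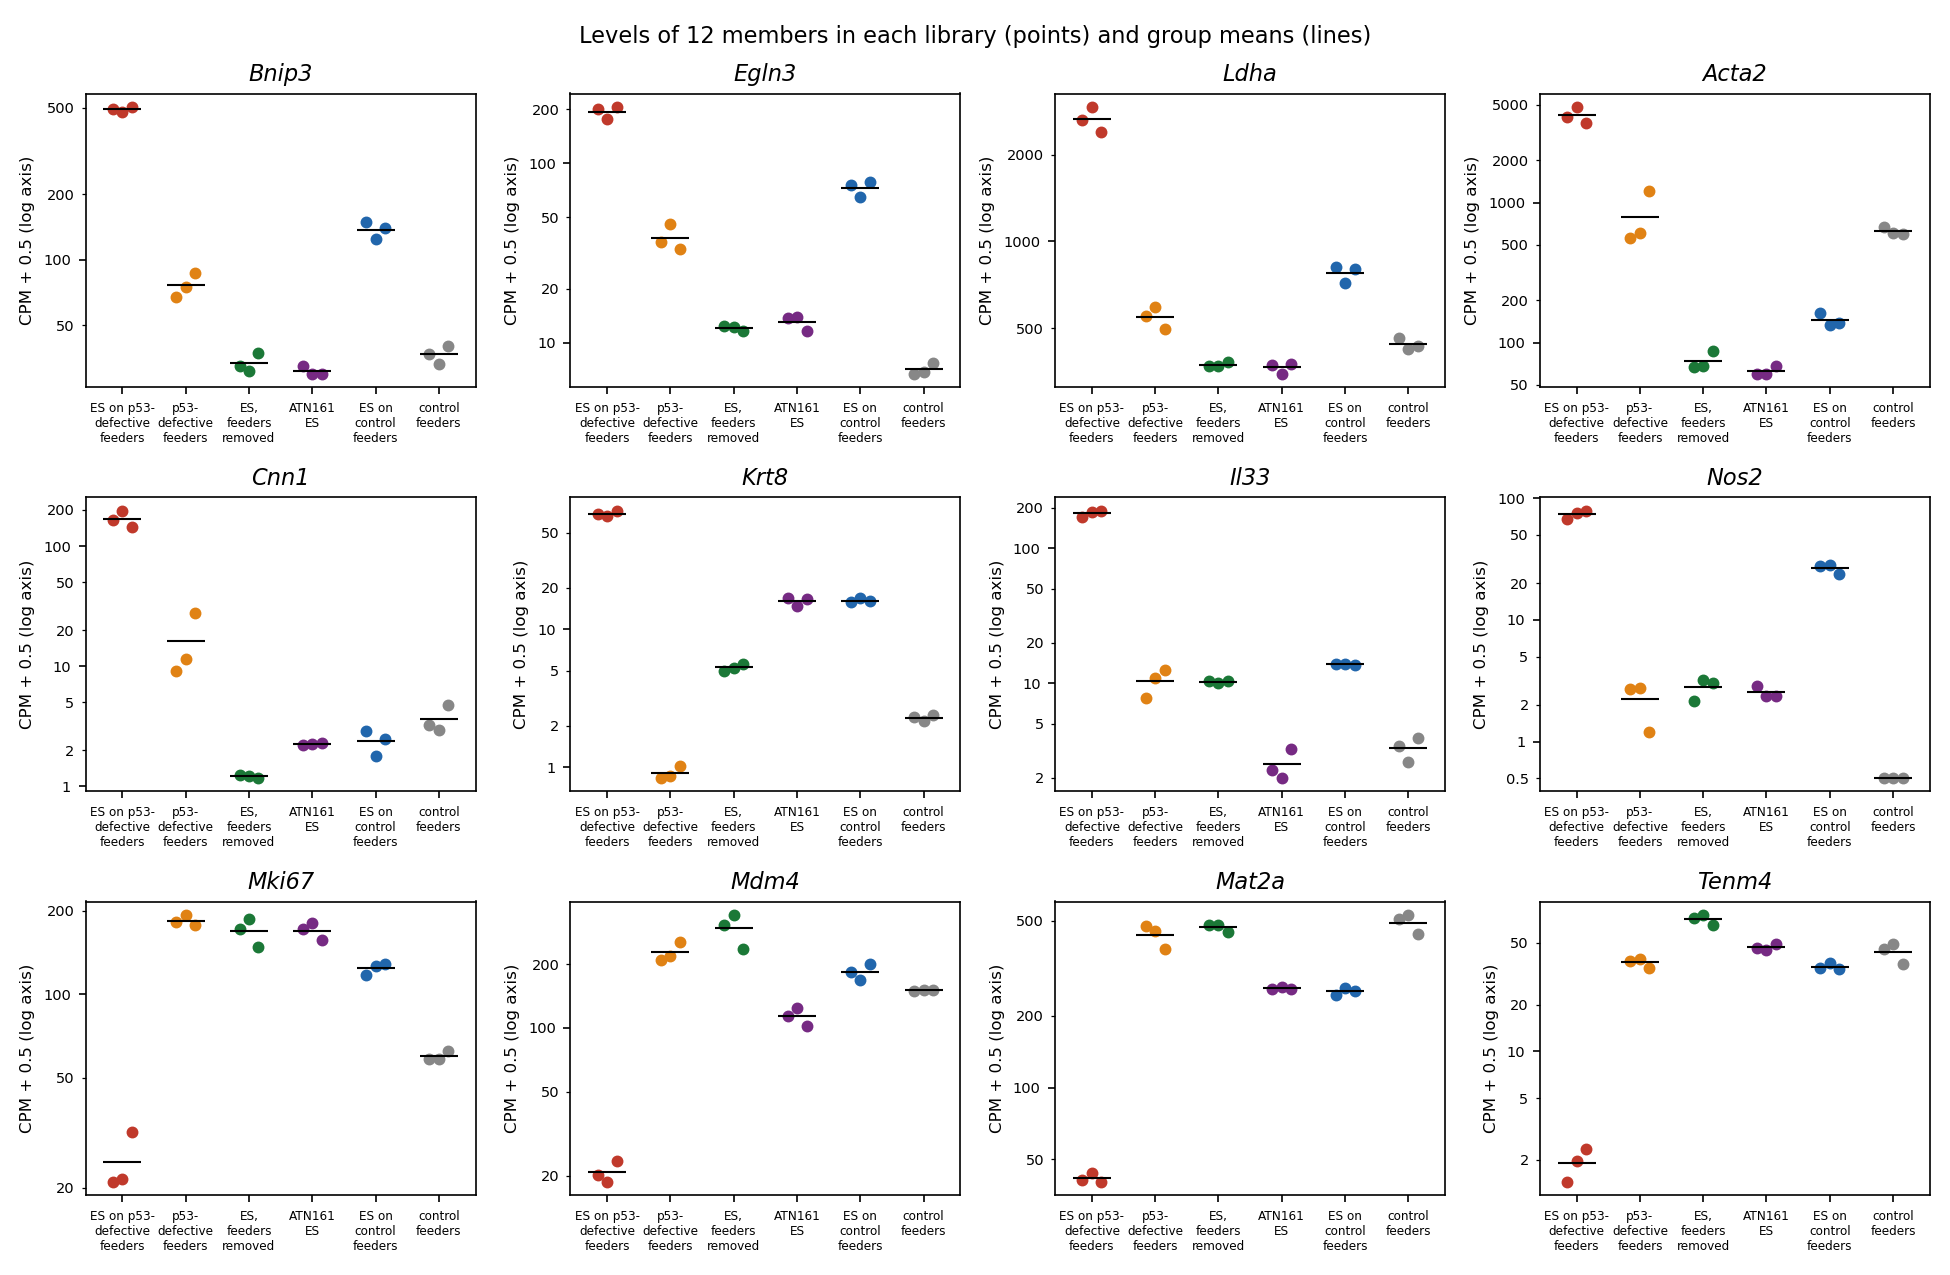
CPM with 0.5 CPM added, on a log axis, of 12 members in each library (points) with the group mean (lines), in 6 groups. Bnip3, Egln3, Ldha, Acta2, Cnn1, Krt8, Il33 and Nos2 were highest in ES cells on p53-defective feeders, and Mki67, Mdm4, Mat2a and Tenm4 lowest. In Acta2 and Cnn1 the third p53-defective feeder library stands above the other 2 of its group.

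Of 15 eligible genes of the keratin and epithelium list 5 were members above (33.3%, against 5.86% of all eligible genes) and none below, with a list median of 1.74 log2 units above the best mix. They were Anxa8 and the keratin genes Krt8, Krt18, Krt7 and Krt14, which encode intermediate filament proteins of epithelial cells. Krt19 was not a member, with a mean of 102 CPM in the co-culture, 55.4 CPM in the feeders and 2.08 CPM in the feeder-removed ES cells. Krt8 (chromosome 15 from 101996711 to 102004342) had 67.4, 65.7 and 71.6 CPM in the p53-defective co-culture, 0.331, 0.359 and 0.514 CPM in the p53-defective feeders and 4.47, 4.75 and 5.13 CPM in the feeder-removed ES cells. Its partner Krt18 had 46.4, 47.6 and 47.5 CPM in the co-culture, 0.0661 to 0.419 CPM in the feeders and 2.15 to 4.51 CPM in the feeder-removed ES cells. Both also mark trophectoderm and mesothelium, so these lists share members. In the control co-culture Krt8 and Krt18 (means of 15.6 and 13.6 CPM) were also 2-fold above the range of its parts. The 10 trophectoderm markers summed to 155 to 164 CPM in the p53-defective co-culture, against 27.5 to 31.1 CPM in the p53-defective feeders and 107 to 114 CPM in the feeder-removed ES cells. Their sums were higher in the control co-culture, at 172 to 175 CPM, and in ATN161 ES cells, at 186 to 188 CPM. Of these markers, Cdx2, Elf5 and Ascl2 were under 1 CPM in the p53-defective co-culture, while 4 reached 10 CPM, Krt8, Krt18 and Krt7 among them. Of the mesothelial markers Upk1b and Lrrn4 were members above too. The part of such cells in the keratin levels was not tested.

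Nos2, which encodes the inducible nitric oxide synthase, was among the members farthest above. It had 67.3, 74.7 and 78.4 CPM in the p53-defective co-culture, 2.18, 2.27 and 0.707 CPM in the p53-defective feeders and 1.64, 2.71 and 2.51 CPM in the feeder-removed ES cells. It also had 27.5, 27.8 and 23.2 CPM in the control co-culture and no count in control feeders, which with a floor of 3 counts over the group is at least 459.7-fold higher in the control co-culture. Against the control co-culture, ATN161 ES cells stood at -3.55 ± 0.19 log2 units (SE, edgeR adjusted p = 2.4e-12), with 1.86 to 2.37 CPM. Il33, an alarmin cytokine of barrier cells, had 169, 185 and 189 CPM in the p53-defective co-culture, 7.27, 10.5 and 12.1 CPM in the p53-defective feeders and 9.5 to 9.92 CPM in the feeder-removed ES cells. The complement gene C3 and the chemokine gene Cxcl12 were the other 2 members above of the 23 eligible NF-kB and inflammatory genes (17.4%, against 5.86% of all eligible genes). Ptgs2, for the prostaglandin synthase COX-2, was below the range with 45.3 ± 10.3 CPM in the co-culture, against 350.1 ± 119 CPM in the feeders and 108 ± 9.13 CPM in the feeder-removed ES cells (SD, n = 3 each), as was the cytokine gene Lif. Of the 10 macrophage markers, Ptprc, Lyz2, Adgre1, Tyrobp, Fcer1g and Itgam were under 1 CPM in the p53-defective co-culture, while Cd68 and Cd14 were members above. Cd68 averaged 15.3 CPM in the co-culture, 5.46 CPM in the feeders and 7.04 CPM in the feeder-removed ES cells, and Cd14 16.5, 7.98 and 1.08 CPM. The 10 markers summed to 39.2 to 40.7 CPM in the co-culture, 74.1 to 89.6 CPM in the feeders and 11.5 to 13.5 CPM in the feeder-removed ES cells. None of 26 eligible interferon response genes was a member in either direction. Several were near 0 in the p53-defective feeders, such as Oas2 at 0.0634 CPM and Ifi44 at 0.51 CPM, and such genes could hardly fall below the range.

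The largest ratio above belonged to Angpt4, an angiopoietin that binds the endothelial receptor TIE2: 35.5, 35.1 and 35.6 CPM in the p53-defective co-culture, 0.661, 0.598 and 1.67 CPM in the p53-defective feeders and 0.442 to 0.947 CPM in the feeder-removed ES cells. That is 36.2-fold over the higher part. Placental growth factor, Pgf, had 75.8 ± 1.39 CPM in the co-culture, against 9.33 ± 1.25 CPM in the feeders and 1.12 ± 0.126 CPM in the feeder-removed ES cells (SD, n = 3 each). Igfbp3, a carrier of insulin-like growth factors, had 643, 691 and 707 CPM in the p53-defective co-culture, 46.9, 55.7 and 35.8 CPM in the p53-defective feeders and 30.5, 31.9 and 33.1 CPM in the feeder-removed ES cells. Control feeders held 533 to 683 CPM of Igfbp3, so the co-culture was as high as the other feeders. The small heat shock protein gene Cryab, with 308 ± 17.6 CPM in the co-culture, was 9.6-fold over the p53-defective feeders. Also among the 15 largest were Wnt4, Vwa1, Selenbp1 and Mgll, at 10.8- to 16.2-fold, and Prl2c2 and Sprr2a1, which belong to multicopy families whose reads cannot be assigned with certainty.

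Of 32 eligible matrix genes 4 were members above (12.5%, against 5.86% of all eligible genes), all of them collagen genes, and control feeders held more of each. Col1a1 (chromosome 11 from 94936224 to 94953042) had 6807, 5239.6 and 9292 CPM in the p53-defective co-culture, 2296, 2515 and 3322 CPM in the p53-defective feeders and 693 to 797 CPM in the feeder-removed ES cells. Control feeders had 8019.5 to 9718 CPM of it, and by the range of control feeders and feeder-removed ES cells it was no member. The same held for Col1a2, Col3a1 and Col12a1, the other 3. The collagen genes Col5a1, Col5a2 and Col11a1 were not members. Col12a1 had 313 ± 110.4 CPM in the co-culture and 2184 ± 95 CPM in control feeders (SD, n = 3 each). The laminin gene Lama1 was the list's member below. Plat, the tissue plasminogen activator gene, Timp1, Adamts4, Adam8 and Adam12 were above among 26 eligible proteases and inhibitors (19.2%, against 5.86% of all eligible genes). Control feeders held more Adamts4 and Adam12 (means of 76.2 and 41.4 CPM) than the p53-defective co-culture (29.4 and 14.4 CPM). Adam8 was alike in both (17.2 and 16.2 CPM). Plat and Timp1 were lower in control feeders (115 and 154 CPM, against 269.7 and 267 CPM). Across the members above, 76 had a mean in control feeders at or over that of the p53-defective co-culture.

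**Figure D4:**
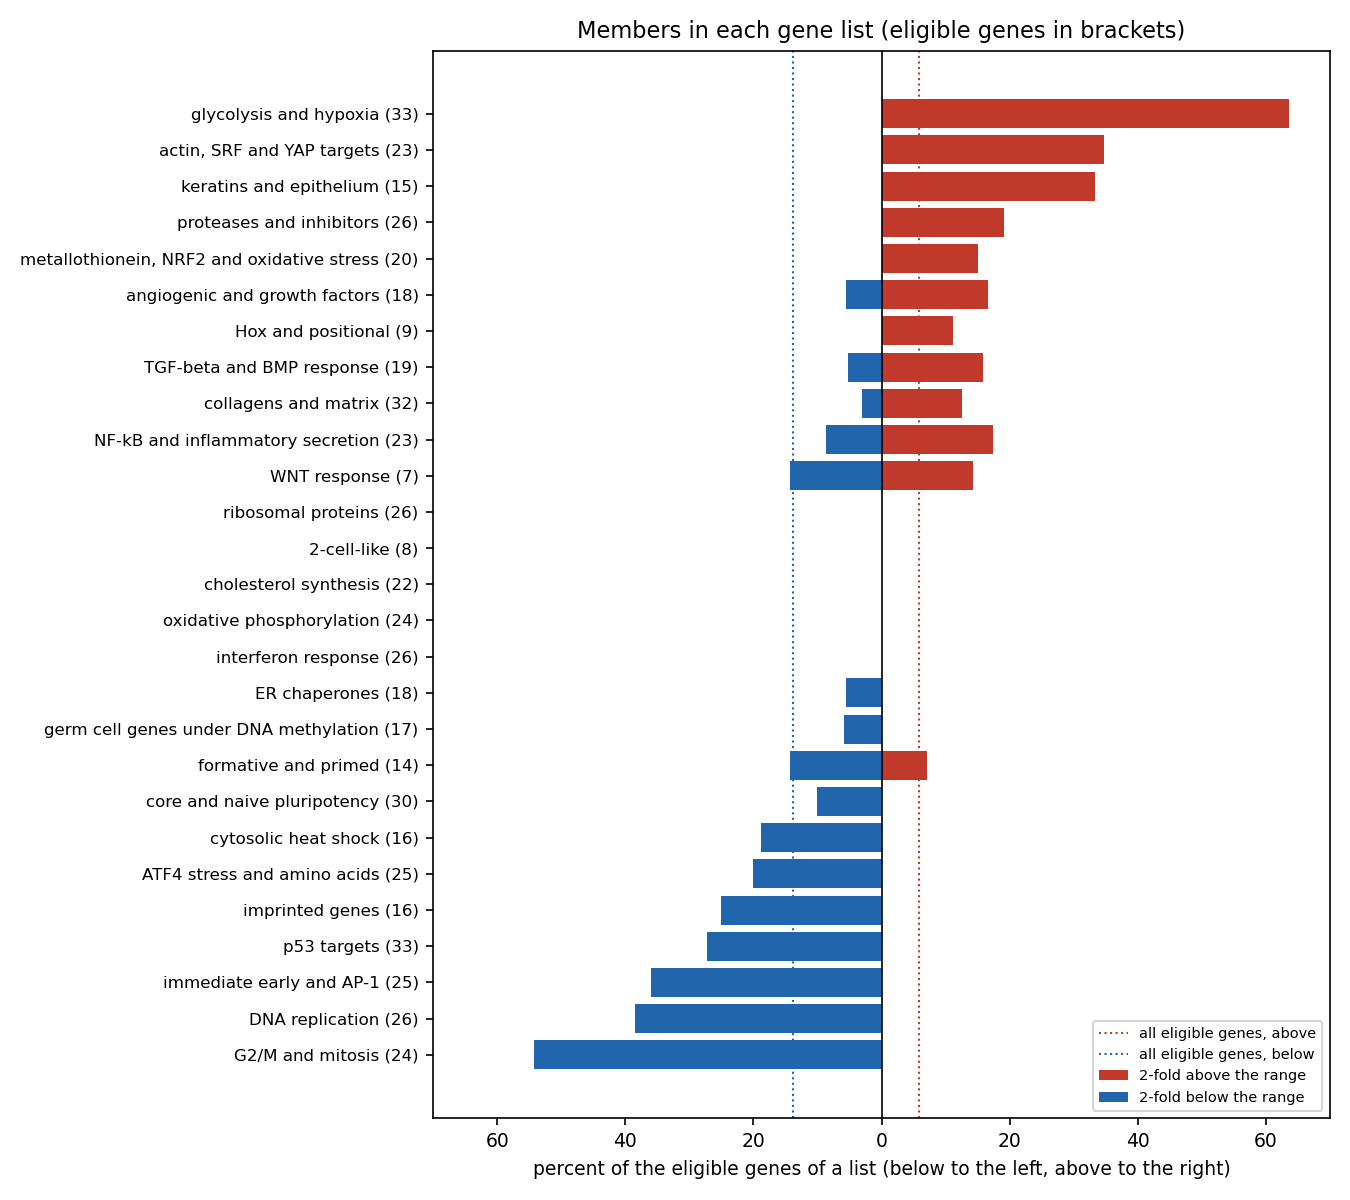
Bars give the percent of each list's eligible genes (number in brackets) that were 2-fold above the range in the p53-defective co-culture (red, to the right) or 2-fold below it (blue, to the left). Dotted lines mark all eligible genes, at 5.86% above and 13.9% below. Glycolysis and hypoxia reached 63.6% above, and G2/M and mitosis 54.2% below.

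Of 24 eligible genes of G2/M and mitosis, 13 were below (54.2%, against 13.9% of all eligible genes) and none above, with a list median of -1.12 log2 units against the best mix. Of 26 DNA replication genes 10 were below (38.5%) and none above, with a median of -0.62. The other 11 and 16 genes of the 2 lists were inside the range or less than 2-fold outside it. Mki67 (chromosome 7 from 135689784 to 135716450), which marks cycling cells, had 20.5, 21.1 and 31.4 CPM in the p53-defective co-culture, 182, 193 and 177 CPM in the p53-defective feeders and 171, 187 and 148 CPM in the feeder-removed ES cells. Cenpe, a kinesin of the kinetochore, had 5.22, 6.06 and 7.13 CPM in the co-culture, 53.7, 49.4 and 40.9 CPM in the feeders and 70.8, 76.5 and 63.6 CPM in the feeder-removed ES cells. The DNA polymerase gene Pole had 10.9, 10.8 and 12.8 CPM in the co-culture, 58.1, 60.6 and 54.9 CPM in the feeders and 117, 118 and 105 CPM in the feeder-removed ES cells. No co-culture library overlapped with a part in these 3 genes.

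The counts for both lists depended on the feeder group. Control feeders had far less of these RNAs, 58 to 61.8 CPM of Mki67 and 12.6 to 14.3 CPM of Cenpe. With control feeders as the feeder part, 2 of the 24 G2/M genes and none of the 26 replication genes were below the range, while 1584 genes in all were below it. Plk1, a kinase of mitotic entry, was inside the range with a mean of 39.6 CPM in the co-culture, 39.6 CPM in the feeders and 186 CPM in the feeder-removed ES cells. In the control arm all 24 G2/M genes were higher in the control co-culture than in control feeders, and all 24 were higher in ATN161 ES cells than in the control co-culture, so none left that range.

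Of 33 eligible p53 targets, 9 were below the range (27.3%, against 13.9%) and none above. Mdm2 (chromosome 10 from 117688875 to 117710758), the ubiquitin ligase of p53, had 71.5, 64.5 and 75.9 CPM in the p53-defective co-culture, 183, 172 and 157 CPM in the p53-defective feeders and 601, 577 and 565 CPM in the feeder-removed ES cells. Its relative Mdm4 (chromosome 1 from 132986105 to 133030587), an inhibitor of p53 that is not in the list, had 19.8, 18.2 and 22.9 CPM in the co-culture, 209, 218 and 254 CPM in the feeders and 307, 341 and 235 CPM in the feeder-removed ES cells. Mdm4 was thus 11.2-fold under the lower part. The kinase gene Plk2, the stress gene Trp53inp1 and the death receptor gene Eda2r were below at 3.88-, 4.29- and 3.75-fold. Cdkn1a, the p53 target that encodes the cell cycle inhibitor p21, went the other way: 713, 745 and 696 CPM in the p53-defective co-culture, 317, 301 and 195 CPM in the p53-defective feeders and 541 to 614 CPM in the feeder-removed ES cells. Its mean was above both parts by less than 2-fold, so it was no member. In the control arm, 14 of the 33 p53 targets were higher in the control co-culture than in both control feeders and ATN161 ES cells. Only 1 was lower than both. The shares over all genes tested were 5.98% higher and 5.45% lower than both.

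Immediate early genes, which cells switch on within minutes of a stimulus, were members below in 9 of 25 (36.0%, against 13.9%) and above in none. Fos had 3.86, 4.44 and 5.14 CPM in the p53-defective co-culture, 9.72, 11.4 and 9.77 CPM in the p53-defective feeders and 272, 252 and 264 CPM in the feeder-removed ES cells. Atf3, a stress-induced factor of the AP-1 group, had 12.5, 12.8 and 11.3 CPM in the co-culture, 211, 202 and 109 CPM in the feeders and 29.9 to 36.3 CPM in the feeder-removed ES cells. In the control co-culture Fos had 801, 799.6 and 786 CPM, against 18.1 to 20.7 CPM in control feeders, a difference of 5.22 ± 0.09 log2 units (SE, edgeR adjusted p = 3.29e-22). ATN161 ES cells had 5.44 to 6.5 CPM of Fos, -6.97 ± 0.10 log2 units against the control co-culture (edgeR adjusted p = 6.47e-23). With ATN161 ES cells as the ES part, 3 genes of the list were below the range. In the control arm the list went the other way. There 20 of the 25 genes were higher in the control co-culture than in both control feeders and ATN161 ES cells. None was lower than both. Over all genes tested, 5.98% were higher than both and 5.45% lower. Fos, Fosb and Atf3 were also 2-fold above the range of control feeders and feeder-removed ES cells in the control co-culture.

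The largest ratio below was that of Tenm4 (chromosome 7 from 96171244 to 96911093), a teneurin of cell adhesion, with 0.939, 1.46 and 1.84 CPM in the p53-defective co-culture, 37.8, 38.8 and 34 CPM in the p53-defective feeders and 71.3, 75.2 and 65 CPM in the feeder-removed ES cells. It was 26.1-fold under the lower part and had 33.3 to 48.6 CPM across the libraries of ATN161 ES cells, the control co-culture and control feeders. Socs2, a suppressor of cytokine signalling, followed at 16.9-fold with 2.58 ± 0.162 CPM in the co-culture, against 43.6 ± 3.71 CPM in the feeders and 86.6 ± 4.19 CPM in the feeder-removed ES cells (SD, n = 3 each). Several of the 15 largest act on RNA or chromatin: Pcf11 cuts the 3' ends of transcripts, Dis3 is a nuclease of the exosome, Nol8 is nucleolar, Atrx is a chromatin remodeller, Rif1 acts in replication timing and Suv39h2 methylates histones. Pcf11 had 6.32, 6.17 and 7.24 CPM in the co-culture, 90.9, 84.6 and 66.4 CPM in the feeders and 109, 112 and 86.6 CPM in the feeder-removed ES cells. Mat2a (chromosome 6 from 72432796 to 72439556), which makes the methyl donor S-adenosylmethionine, had 40.6, 43.6 and 39.7 CPM in the co-culture, 473, 452 and 382 CPM in the feeders and 481, 480.1 and 447 CPM in the feeder-removed ES cells. In the control arm Mat2a stood at -1.09 ± 0.08 log2 units in the control co-culture against control feeders (SE, edgeR adjusted p = 3.08e-11), with no call between ATN161 ES cells and the control co-culture (0.16 ± 0.08, adjusted p = 0.101).

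Members below with high levels in a part included the nucleolar genes Npm1 and Ncl, the RNA-binding genes Hnrnpu, Hnrnpa3, Hnrnpa2b1 and Ddx5, the translation factor genes Eif3a and Eif4g2, the chaperone gene Hspd1 and the secreted phosphoprotein gene Spp1. Npm1 had 1027, 1042 and 919 CPM in the p53-defective co-culture, 2249, 2151 and 1898 CPM in the p53-defective feeders and 2402, 2399 and 2299 CPM in the feeder-removed ES cells. Eif3a had 331 ± 49.2 CPM in the co-culture, 1524 ± 176 CPM in the feeders and 692 ± 70.7 CPM in the feeder-removed ES cells (SD, n = 3 each). None of the 26 ribosomal protein genes and none of 24 genes of oxidative phosphorylation was a member, with list medians of 0.71 and 0.59 log2 units above the best mix. Of 25 eligible genes of the ATF4 response 5 were below (20%, against 13.9% of all eligible genes), among them the amino acid transporter genes Slc38a2, Slc7a3 and Slc7a5. Slc38a2 had 141, 133 and 167 CPM in the co-culture, 1089, 1068 and 1034 CPM in the feeders and 578, 523 and 483 CPM in the feeder-removed ES cells.

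Of 30 eligible pluripotency genes, Klf4, Tfcp2l1 and Spp1 were below (10%, against 13.9% of all eligible genes) and none was above. The p53-defective feeders expressed these 3, with means of 118, 51.3 and 1199 CPM. A gene without counts in the feeders, such as Pou5f1, Sox2 or Zfp42, is below the range only if the co-culture has no count either. The low share below thus does not show that pluripotency genes followed a mixture. The same limit holds for 2-cell-like and germ cell genes that were low in the feeders. Klf4, a factor of naive ES cells that fibroblasts also express, had 28.5, 24.5 and 30.3 CPM in the p53-defective co-culture, 131, 129 and 91.9 CPM in the p53-defective feeders and 278, 261 and 269 CPM in the feeder-removed ES cells. Tfcp2l1 had 45.6 to 61.2 CPM in the p53-defective feeders, against 0.341 to 0.629 CPM in control feeders. Of 16 eligible imprinted genes Plagl1, Rtl1, Peg3 and Impact were below (25%, against 13.9% of all eligible genes). The remaining lists had at most 3 members in a direction: 3 above for oxidative stress genes (Gstm1, Mt1, Ftl1), 3 above and 1 below for TGF-beta and BMP response, 3 above and 1 below for growth factors, 1 above and 2 below for formative genes, 1 and 1 for WNT response, 1 above for positional genes, 3 below for cytosolic heat shock, 1 below for ER chaperones, 1 below for methylated germ cell genes, and none for cholesterol synthesis or 2-cell-like genes.

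Of 643 members above that passed the filter on low counts (1 did not), 86 were higher in the control co-culture than in both control feeders and ATN161 ES cells (13.4%, against 5.98% of all genes tested), and 26 were lower than both (4.04%, against 5.45%). All 1530 members below passed the filter. Of them 216 were lower than both (14.1%, against 5.45%) and 64 higher than both (4.18%, against 5.98%). This count was 112, 126 and 141 without control co-culture library 1, 2 and 3 in turn, 142 without the second library of control feeders and 142 with no filter on low counts, settings in which the median difference of all genes between ATN161 ES cells and the control co-culture was -0.01 to 0.00 in place of 0.07 log2 units. Members above were lower in ATN161 ES cells than in the control co-culture in 347 (54.0%, against 28.0%), with a median of -0.42 against 0.07 log2 units over all genes. Members below were higher there in 795 (52.0%, against 33.6%), with a median of 0.25. All members had to reach 10 CPM, whereas the shares set beside theirs cover all genes tested. Of the 10988 eligible genes tested, 4380 were higher and 3192 lower in ATN161 ES cells than in the control co-culture. Among these eligible genes, 637 were higher in the control co-culture than in both groups and 748 lower than both. Against control feeders, 188 members above were higher in the control co-culture (29.2%, against 44.3% of all genes tested) and 323 lower (50.2%, against 39.9%). Of the members below, 655 were higher (42.8%) and 605 lower (39.5%), near those shares. In the control co-culture, 22 of the 644 members above were also 2-fold above the range of control feeders and feeder-removed ES cells. Another 1 was 2-fold below it. Of the 1530 members below, 7 were also 2-fold below that range and 4 above it. Over all eligible genes, 0.698% were above it and 0.181% below.

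Members in the 2 directions differed in their transcripts, a property that the rule did not use. The transcript of a member above had a median of 1814 bases and 55.5% GC, that of a member below 4373 bases and 44.7% GC, and that of an eligible gene 3032 bases and 50.3% GC (GENCODE M21, 98.8%, 96.5% and 98.2% of genes with a transcript). The coding sequence had a median of 898 bases in members above and 2061 in members below, the untranslated regions 714 and 1831 bases, and the number of exons was 6 and 13. Over 5 equal bins of eligible genes from the shortest to the longest transcript, the share above was 14.0%, 7.0%, 4.12%, 2.87% and 1.44%, and the share below 3.06%, 7.74%, 12.3%, 17.3% and 28.0%. Over 5 equal bins from the lowest to the highest GC, the share above was 0.926%, 2.09%, 4.59%, 8.29% and 13.6%, and the share below 33.2%, 18.4%, 9.08%, 4.96% and 2.83%.

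**Figure D5:**
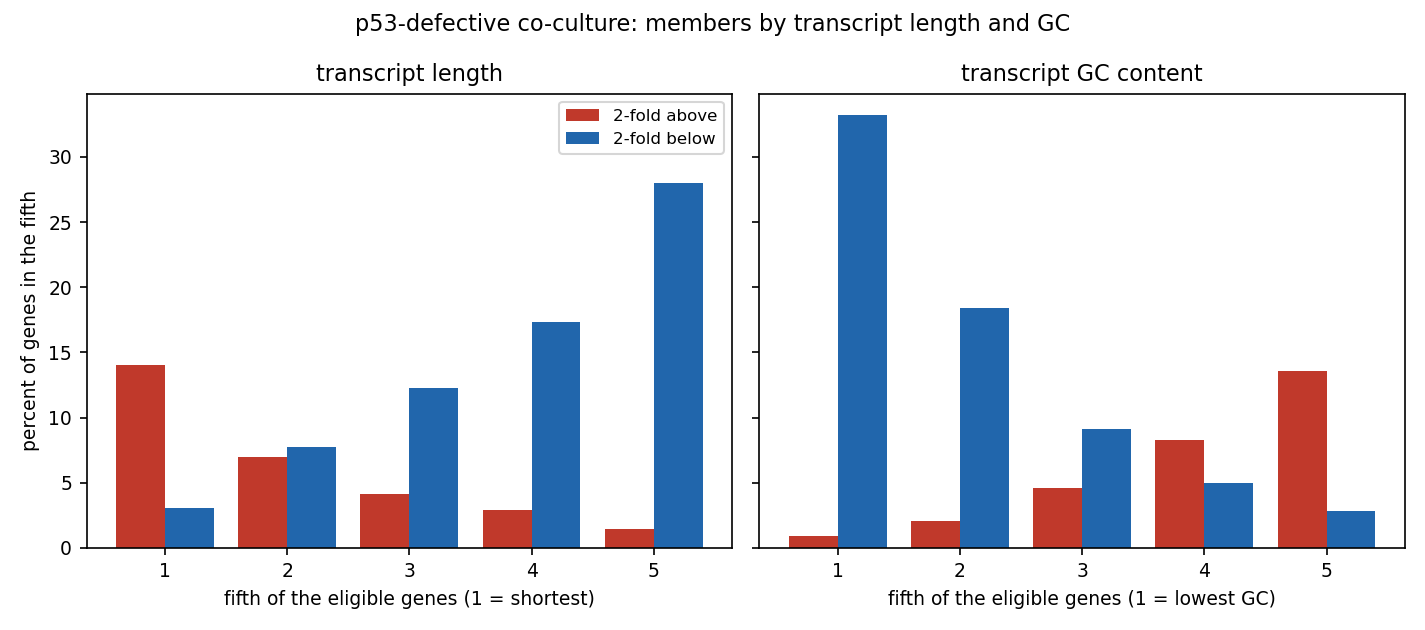
Bars give the percent of genes in each of 5 equal bins of the eligible genes, by transcript length (left) and GC content (right), that were 2-fold above (red) or below (blue) the range in the p53-defective co-culture. The share below climbed with length to 28.0% and was 33.2% in the lowest GC bin, while the share above ran the other way on both axes.

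Relative to its best mix, the control co-culture had a weaker slope of the same sign. The median in the bins of shortest and longest transcripts was 0.10 and -0.08 log2 units in the control co-culture, against 0.50 and -0.86 in the p53-defective co-culture. In the lowest and highest GC bins it was -0.28 and 0.19 in the control co-culture, against -1.03 and 0.32 in the p53-defective co-culture. The part of transcript length and GC in the counts of members was not tested. When each of 25 bins of length and GC was centred on its median, a setting chosen after seeing the data, 654 genes were below the range in place of 1530, of which 553 were among the 1530. Above the range were 611 genes, of which 361 were among the 644. The glycolysis and hypoxia list then had 18 genes above and the actin list 8, while 6 G2/M, 5 replication and 4 p53 target genes were below. With TMM scaling in place of CPM, which moved the co-culture 0.26 log2 units up relative to its parts, 1091 genes were above, the 644 among them, and 1022 below.

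Members came from every chromosome. The share of eligible genes above the range was lowest on chromosome 14, at 2.15%, and highest on chromosome 19, at 12.3%. The share below was lowest on chromosome 15, at 7.22%, and highest on chromosome 13, at 21.7%.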

How the data were processed

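Library totals, groups and depth are as given above. The authors deposited, per the file headers, a table of estimated counts per transcript for 18 libraries, not normalized and in part not whole numbers. RNA was isolated with Trizol and libraries made with a TruSeq mRNA kit, per the labels' protocols; HISAT2 2.1.0, StringTie 1.3.3b, SAMtools 1.4 and DESeq2 1.2.10, with the builds mm10 and GRCm38, stand in the submitters' processing notes without roles. Strand use in counting is not given in the sources used here, so overlapping and antisense genes cannot be told apart. Counts of 75416 transcripts were summed to 19630 genes, and CPM used all counts of a library. The sums were rounded to whole numbers only for the edgeR and DESeq2 fits. The best mix was the share, in steps of 0.1%, with the smallest median absolute log2 deviation (0.5 CPM added). Control groups were tested with edgeR 4.0.16 (quasi-likelihood test, TMM, filterByExpr, all 18 libraries, 1 coefficient per group, R 4.3.3), which was tested on simulated data, and called at an adjusted p below 0.05 (Benjamini-Hochberg over 15389 genes). Transcript properties came from 1 curated transcript per gene. Named genes were the 15 largest ratios in each direction, the 10 most abundant members, up to 5 members per list and the genes at the threshold. Others, such as Trp53, Cdkn1a, Mdm2, Pou5f1, Fos, Ldha, Pgk1, Slc2a1, Tagln, Vegfa, Car9, Lum and Ifi209, were chosen after their values were seen. The members and gene lists were chosen with earlier results of these data known. Alternatives covered scaling, thresholds, parts of the mix, filters, DESeq2 1.42.0, a replicate block and leaving out each library.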

Additional observations from a re-analysis of the deposited data

How the results depend on the processing

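For genes above and below the range (644 and 1530), TMM scaling gave 1091 and 1022, DESeq2 size factors 1063 and 1046, a 1.5-fold threshold 1339 and 2522, a 4-fold threshold 116 and 265, a minimum of 50 CPM 365 and 968, and all libraries 2-fold outside 347 and 955. Adding control feeders and ATN161 ES cells to the parts gave 350 and 754. A further 2 settings were chosen after seeing the data: all 5 other groups as parts gave 318 and 694, and centring length and GC bins gave 611 and 654. Leaving out each library gave 597 to 719 above and 1416 to 1665 below.

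Glycolysis and hypoxia had 8 genes above at 4-fold and 20 to 21 without a library. The actin list had 4 with 4 groups and 4 with 5 groups as parts, and 8 to 10 without a library. G2/M genes below numbered 20 at 1.5-fold, 3 at 4-fold, 2 with control feeders as the feeder part, 2 with 4 or 5 groups, 6 after centring and 11 to 14 without a library. Replication genes numbered 6 with TMM, 6 with DESeq2 size factors and 6 where all libraries were outside, 1 at 4-fold, 0 with control feeders, 0 with 4 or 5 groups, 5 after centring and 9 to 10 without a library. Immediate early genes numbered 0 at 4-fold, 3 with ATN161 ES cells as the ES part, 2 with 4 or 5 groups and 9 to 10 without a library. p53 targets numbered 1 at 4-fold, 5 with 4 or 5 groups, 4 after centring and 9 without any library. These lists' alternatives were also added after seeing the data. The ES share of 3.9% was 6.0% by least squares, 5.7% with ATN161 ES cells, and 3.5% to 6.4% without a library.

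In the control arm, calls against control feeders numbered 12964 (12718 to 13039 without a library, of which 6728 to 7126 were higher) and calls of ATN161 ES cells against the control co-culture 9483 (8230 to 9578, of which 3748 to 5242 were higher). Members above that passed both tests numbered 86 (79 to 94). Members below numbered 216 (112 to 218 without a library, 142 with no filter on low counts), and the cause was not tested. The replicate numbers did not pair the samples, with correlations of deviations from -0.113 to 0.223 and 3 of 45 pairs above 0.1. With the replicate number as a block the counts were 12958, 9448, 89 and 220. No named gene changed sign, but the balance of calls between ATN161 ES cells and the control co-culture turned, with 54.6% of calls higher as reported, 46.0% with no filter, 48.6% with only the groups compared and 45.5% without control co-culture library 1. Over the named genes, 278 of the recomputed distances outside the range no longer met the rule and 1850 kept their side, and of the log2 differences 42 lost and 55 gained a call while 3989 kept theirs. With 3 libraries a group the precision is that of the spread between libraries, and genes near 1 CPM rest on few counts.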
